A study of Rattus norvegicus with 23 samples.

Results

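A set of 10 genes of growing neurites and young neurons was followed in the CA3 field of the rat hippocampus: the beta-tubulins Tubb2b, Tubb2a and Tubb3, the growth-cone proteins Gap43, Stmn1, Stmn2 and Dpysl3, the microtubule-binding protein Dcx, the transcription factor Sox11 and the adhesion molecule Ncam1. Every probe set that the platform annotation pairs with 1 of these 10 symbols was taken, which gave 17 of the 31042 gene probe sets on the array. A probe set is a group of short probes read as 1 value. Of the 17, 10 lay above a low filter (6 or more arrays with a log2 value of 4 or higher, a filter that 14647 of all gene probe sets passed), and these covered 8 of the 10 genes. The other 7 lay at or near the floor of the scale, and no probe set of Sox11 or Dpysl3 passed.

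A growth cone is the motile tip of an extending axon or dendrite. Its actin-rich front explores the surroundings and its core of microtubules, polymers of alpha- and beta-tubulin, advances behind it, with proteins of the stathmin, doublecortin and collapsin response mediator families setting how stable those microtubules are. Many of these genes are strongly used during development and in the newborn granule cells of the dentate gyrus, and several stay on in adult neurons, where their products take part in axonal upkeep and synaptic plasticity. CA3 pyramidal neurons receive the mossy fibres of the dentate granule cells, so CA3 tissue can hold the axons of young granule cells but few of their cell bodies.

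The study asked how gene expression in CA3 differs with age and with the loss of spatial learning. Male Long-Evans rats, an outbred strain, formed 3 groups: aged impaired (24 to 26 months old, n = 8), aged unimpaired (24 to 26 months old, n = 6) and young (6 months old, n = 9). Aged animals were placed in a group by their score in a water maze in which the animal must find a hidden platform. RNA of microdissected CA3 was hybridised to Rat Genome 230 2.0 arrays, 1 animal to 1 array, and the values are GCRMA log2 expression. The array medians ran from 3.39 to 3.46 over the 23 arrays, and each array correlated with the rest at 0.996 to 0.997 on average. By these measures no array stood apart, and none was a copy of another. The correlation took in all gene probe sets, most of them below the filter, so it says little on smaller differences between arrays. In such tissue, fewer cells that use a gene and less RNA of it in each cell cannot be told apart.

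Of the 10 genes, the 2 tubulins called lower in aged impaired than in young animals, Tubb2b and Tubb3, and Tubb2a, the near-identical paralog of Tubb2b on the same chromosome, are shown by the 250 bases before their annotated starts, so that the start regions of a called pair and an uncalled relative can be read side by side. The sequences are from RefSeq on build GRCr8, 5′ to 3′ in the direction of transcription. Capitals mark every match, on either strand, to TATAA (the TATA box core), GGGCGG (the GC box), CCAAT (the CCAAT box) and TGACGT (the half-site of cAMP response elements). Matches on the other strand appear as the reverse complement of these letters, and positions are those of a match's first base relative to the start.
Tubb2b, chr17:30952836-30953085 (plus strand): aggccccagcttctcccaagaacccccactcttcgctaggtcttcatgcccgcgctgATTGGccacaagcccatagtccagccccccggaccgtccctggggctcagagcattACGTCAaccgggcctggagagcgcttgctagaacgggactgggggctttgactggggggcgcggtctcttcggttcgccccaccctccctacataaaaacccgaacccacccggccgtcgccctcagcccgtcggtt
Tubb2a, chr17:31001936-31002185 (plus strand): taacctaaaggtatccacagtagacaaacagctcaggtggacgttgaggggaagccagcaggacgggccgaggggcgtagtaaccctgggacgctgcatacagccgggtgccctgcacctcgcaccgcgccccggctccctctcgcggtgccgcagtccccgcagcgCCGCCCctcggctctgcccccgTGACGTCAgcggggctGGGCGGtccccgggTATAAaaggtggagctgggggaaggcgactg
Tubb3, chr19:68365437-68365686 (plus strand): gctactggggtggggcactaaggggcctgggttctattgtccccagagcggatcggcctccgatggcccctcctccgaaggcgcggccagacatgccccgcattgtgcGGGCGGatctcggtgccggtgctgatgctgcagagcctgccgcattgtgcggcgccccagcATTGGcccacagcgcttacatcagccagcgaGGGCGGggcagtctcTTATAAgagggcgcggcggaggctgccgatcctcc
The Tubb2b stretch held 1 CCAAT match at -193 and 1 TGACGT match at -137, and no match to the TATA or GC motif. In the Tubb2a stretch, TATAA stood at -31, GGGCGG at -83 and -45, and TGACGT at -61 and -59, where the 2 matches overlap on opposite strands. The Tubb3 stretch had overlapping TATAA matches at -35 and -34, GGGCGG at -142 and -50, and CCAAT at -81. Among 27457 rat promoter entries of the same length, 24.1% held TATAA, 32.4% GGGCGG, 34.3% CCAAT and 7.25% TGACGT. The arrays measured RNA and not binding, so these matches describe letters only. For 7 of the 10 genes the RefSeq table had an entry, and Gap43, Stmn2 and Ncam1 are not shown.

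Differences were tested with limma over all 14647 probe sets, with 1 mean per group and the Benjamini-Hochberg adjustment, and a probe set was called at an adjusted p of at most 0.05. Log2 differences are given with their standard error (SE), and a negative one means lower in the group named first. In aged impaired against young animals, 4 of the 10 tested probe sets were called, all lower (Tubb2b, Tubb3, Gap43 and 1 of the 2 for Stmn2), where 9.76% of all tested probe sets were called and 5.88% were called lower. In aged unimpaired against young animals, 3 of 10 were called, again all lower (Tubb2b and both for Stmn2), where the shares over all probe sets were 2.06% and 0.696%. Both comparisons share the 9 young animals, so they are not independent of each other. The 10 genes were chosen with earlier results of these data known, so the counts beside these shares are descriptions and no test of an excess. Between aged impaired and aged unimpaired animals, limma called 0 of 10 (0.778% of all tested). By limma and by exact permutation, 4 of 10 had an unadjusted p at or under 0.05. These were Tubb2b, Tubb3, Stmn2 (1370042_at) and Ncam1 (1368320_at). Both tests read the same values, and the share of all tested probe sets at that unadjusted threshold was not counted. With both aged groups averaged, 5 of 10 were called against young animals, all lower, where 6.90% of all were called and 3.56% were called lower.

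The median log2 difference over the 10 probe sets was -0.14 in aged impaired against young animals, beside -0.02 over all tested probe sets. It was -0.16 in aged unimpaired against young animals, beside -0.0018 over all, and -0.02 between the aged groups, beside -0.02 over all. Below 0 lay 7 of 10 in aged impaired against young animals, 8 of 10 in aged unimpaired against young animals and 6 of 10 between the aged groups, where 56.5%, 50.9% and 59.2% of all tested probe sets lay below 0. In the comparisons of each aged group with young animals, the called differences were between 1.12-fold and 1.28-fold.

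**Figure D1:**
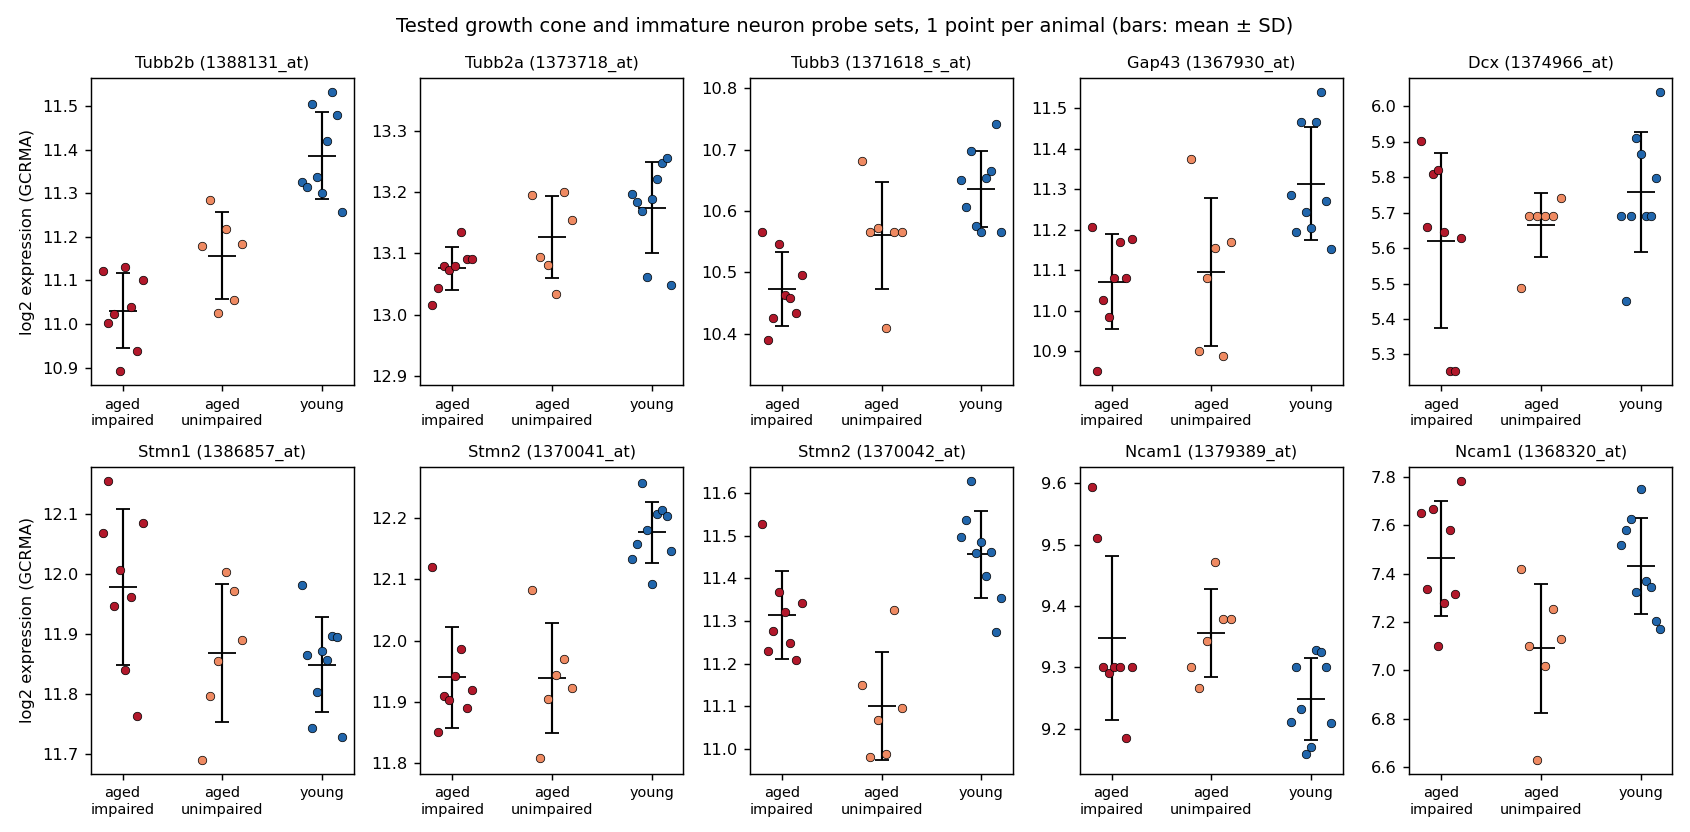
Log2 expression (y axis, GCRMA, own scale in each panel) of the 10 tested probe sets, with 1 point per animal and bars for the mean ± SD in aged impaired (n = 8), aged unimpaired (n = 6) and young (n = 9) animals. The 8 aged impaired animals all lie below the young animals for Tubb2b, and the 6 aged unimpaired animals all lie below them for Stmn2 (1370041_at).

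Tubb2b, a beta-tubulin that young neurons incorporate while they migrate and extend axons, had the largest difference of the 10 in aged impaired against young animals. Its probe set (1388131_at) had a lowest, median and highest log2 value of 10.89, 11.03 and 11.13 in aged impaired animals, 11.02, 11.18 and 11.28 in aged unimpaired animals, and 11.26, 11.34 and 11.53 in young animals. The aged impaired and young animals did not overlap, with 8 of 8 aged impaired animals below every young animal, and the aged unimpaired animals lay between, with 5 of 6 below every young animal. Complete separation downwards of aged impaired from young animals was found for 0.259% of all tested probe sets. The group means were 11.03 ± 0.09 in aged impaired (SD, n = 8), 11.16 ± 0.10 in aged unimpaired (SD, n = 6) and 11.39 ± 0.10 in young animals (SD, n = 9). Tubb2b was 1.28-fold lower in aged impaired than in young animals (log2 difference -0.35 ± 0.05 SE, limma adjusted p = 0.000166), and an exact two-sided permutation test over the animals gave p = 4.11e-05, the smallest it can give. Relative to young animals it was also 1.17-fold lower in aged unimpaired animals (-0.23 ± 0.05 SE, limma adjusted p = 0.0199). That second call ended without aged unimpaired replicate 4 (adjusted p = 0.0621) and with the replicate number as a block (0.0656).

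Between the aged groups, Tubb2b differed by -0.13 on the log2 scale, with a 95% interval of -0.23 to -0.02 and a limma adjusted p of 0.245. Of the aged impaired animals, 4 of 8 lay below every aged unimpaired animal. Its exact permutation p for that comparison was 0.0256 before any adjustment.

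Tubb3, the neuron-specific beta-tubulin that is widely used as a mark of neurons from their birth on, was lower in aged impaired animals. Its tested probe set (1371618_s_at) had a lowest, median and highest log2 value of 10.39, 10.46 and 10.57 in aged impaired animals, 10.41, 10.57 and 10.68 in aged unimpaired animals, and 10.57, 10.65 and 10.74 in young animals. The aged impaired values sat at the bottom and 7 of 8 lay below every young animal, while 2 of 6 aged unimpaired animals did. It was 1.12-fold lower in aged impaired than in young animals (-0.16 ± 0.04 SE, limma adjusted p = 0.00793). The difference of aged unimpaired from young animals was -0.08 ± 0.04 (limma adjusted p = 0.333) and that of aged impaired from aged unimpaired animals -0.09 ± 0.04 (limma adjusted p = 0.301). The aged unimpaired group thus lay between the other two without a called difference from either. Exactly the same value, 10.5662, stood on 5 of the 23 arrays, in all 3 groups, and a second Tubb3 probe set (1369901_at) lay at the floor of 2.19 on every array. Whether the tested probe set also reads transcripts of other genes was not tested.

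Tubb2a, a beta-tubulin abundant in the adult brain, was not called in any comparison. Its probe set (1373718_at) had a lowest, median and highest log2 value of 13.02, 13.08 and 13.13 in aged impaired animals, 13.03, 13.12 and 13.20 in aged unimpaired animals, and 13.05, 13.19 and 13.26 in young animals. The groups overlapped, and 2 of 8 aged impaired animals lay below every young animal. The differences were -0.10 ± 0.03 for aged impaired against young animals (limma adjusted p = 0.0594), -0.05 ± 0.04 for aged unimpaired against young animals (0.525) and -0.05 ± 0.04 between the aged groups (0.564). The first of these passed the threshold without young replicate 4 (0.0356), without young replicate 9 (0.0307), and with limma's trended robust variance (0.037). Tubb2a and Tubb2b have nearly the same coding sequence, the array's probe sequences were not used here, and how far each probe set reads the other gene was not tested.

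**Figure D2:**
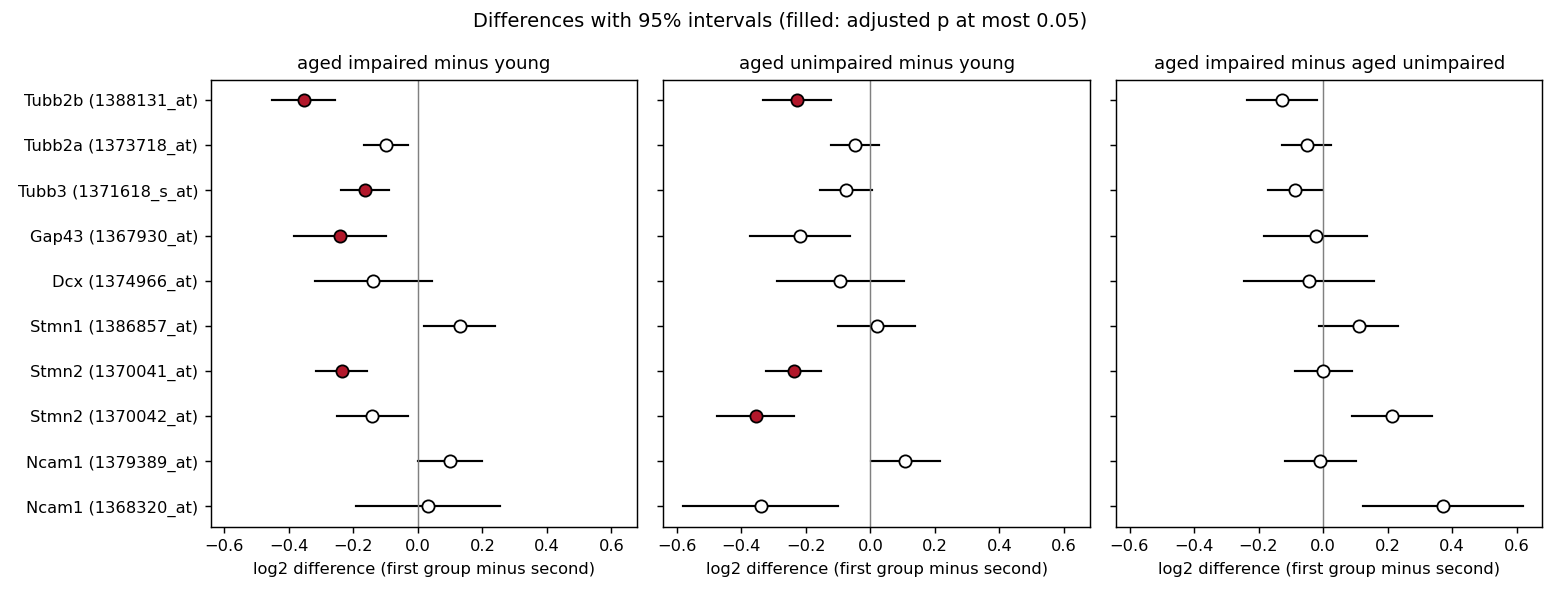
Log2 differences (x axis) of the 10 tested probe sets with 95% intervals, filled where the limma adjusted p was at most 0.05, in aged impaired minus young, aged unimpaired minus young, and aged impaired minus aged unimpaired animals. There are 4, 3 and 0 filled points, all of them left of 0.

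Stmn2 (also called SCG10), a neuronal stathmin of growth cones that binds tubulin and helps axons regrow, was lower in both aged groups on at least 1 probe set. The first probe set (1370041_at) had a lowest, median and highest log2 value of 11.85, 11.91 and 12.12 in aged impaired animals, 11.81, 11.93 and 12.08 in aged unimpaired animals, and 12.09, 12.18 and 12.26 in young animals. The aged unimpaired and young animals did not overlap, and 7 of 8 aged impaired animals also lay below every young animal, the exception being replicate 1 at 12.12. Complete separation downwards of aged unimpaired from young animals was found for 0.287% of all tested probe sets. This probe set was 1.18-fold lower in aged impaired than in young animals (-0.24 ± 0.04 SE, limma adjusted p = 0.000789) and 1.18-fold lower in aged unimpaired than in young animals (-0.24 ± 0.04 SE, limma adjusted p = 0.00409). The exact permutation p for aged unimpaired against young animals was 0.0002, the smallest that 6 against 9 animals allow. Between the aged groups the difference was 0.00 ± 0.04, with a 95% interval of -0.09 to 0.09.

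The second Stmn2 probe set (1370042_at) had a lowest, median and highest log2 value of 11.21, 11.30 and 11.53 in aged impaired animals, 10.98, 11.08 and 11.32 in aged unimpaired animals, and 11.28, 11.46 and 11.63 in young animals. Here the aged unimpaired animals were lowest, with 5 of 6 below every young animal against 3 of 8 aged impaired animals. It was 1.28-fold lower in aged unimpaired than in young animals (-0.36 ± 0.06 SE, limma adjusted p = 0.00253), and its difference in aged impaired against young animals was -0.14 ± 0.05 (limma adjusted p = 0.0915). Aged impaired minus aged unimpaired animals gave 0.21 ± 0.06, with a 95% interval of 0.09 to 0.34 and a limma adjusted p of 0.0796. Before any adjustment, limma gave p = 0.00154 and exact permutation p = 0.00466. Aged impaired replicate 1 was the highest of its group on both probe sets, at 12.12 and 11.53, among the young values on each. Without it, the second probe set was called in aged impaired against young animals (limma adjusted p = 0.0303). A fit with the gap between 2 control rows as a covariate gave that call too (0.0389). Without aged unimpaired replicate 7, the highest of its group there at 11.32, the difference between the aged groups was called (0.0121). The 2 probe sets thus gave the same direction against young animals and did not give the same value for aged impaired against aged unimpaired animals, and which parts of the Stmn2 transcripts each one reads was not used here.

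**Figure D3:**
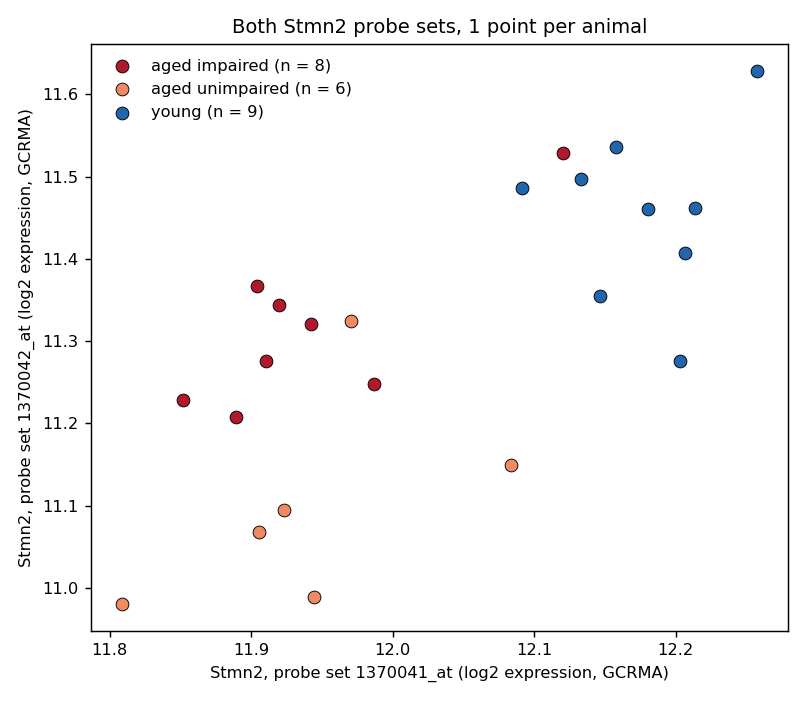
Log2 expression of both Stmn2 probe sets (x axis 1370041_at, y axis 1370042_at), with 1 point per animal. Below every young animal lie 7 of 8 aged impaired and 6 of 6 aged unimpaired animals on the x axis, and 3 of 8 aged impaired and 5 of 6 aged unimpaired animals on the y axis.

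Stmn1, the stathmin that is found in most dividing and young cells and takes tubulin dimers out of the pool for polymerisation, had a difference above 0 against young animals. Its probe set (1386857_at) had a lowest, median and highest log2 value of 11.76, 11.98 and 12.15 in aged impaired animals, 11.69, 11.87 and 12.00 in aged unimpaired animals, and 11.73, 11.87 and 11.98 in young animals. The ranges overlapped, and 4 of 8 aged impaired animals lay above every young animal. The differences were 0.13 ± 0.05 in aged impaired against young animals (limma adjusted p = 0.119), 0.02 ± 0.06 in aged unimpaired against young animals (0.911) and 0.11 ± 0.06 between the aged groups (0.391), so none was called. Without aged impaired replicate 7, the lowest of its group at 11.76, the first was called (0.0495).

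Gap43, a membrane phosphoprotein of growth cones that binds calmodulin and is made again when axons sprout, was lower in aged impaired animals. Its tested probe set (1367930_at) had a lowest, median and highest log2 value of 10.85, 11.08 and 11.21 in aged impaired animals, 10.89, 11.12 and 11.37 in aged unimpaired animals, and 11.15, 11.27 and 11.54 in young animals. The aged groups covered nearly the same range, with 5 of 8 aged impaired and 3 of 6 aged unimpaired animals below every young animal. The group means were 11.07 ± 0.12 in aged impaired (SD, n = 8), 11.09 ± 0.18 in aged unimpaired (SD, n = 6) and 11.31 ± 0.14 in young animals (SD, n = 9). Gap43 was 1.18-fold lower in aged impaired than in young animals (-0.24 ± 0.07 SE, limma adjusted p = 0.0298). In aged unimpaired against young animals the difference was -0.22 ± 0.07 (limma adjusted p = 0.132), and between the aged groups it was -0.02 ± 0.08 (0.935). A call in 1 comparison and none in the other therefore stood beside differences of nearly the same size. The call in aged impaired animals ended without aged impaired replicate 2, 3 or 4 or young replicate 3, 6 or 7 (highest adjusted p 0.0646), with no filter on low values (0.0698) and with the control row gap as a covariate (0.0915). A second Gap43 probe set (1371287_at) lay at the floor on every array.

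Dcx, a microtubule-binding protein of migrating neuroblasts and the usual mark of newborn granule cells, was not called. Its tested probe set (1374966_at) had a lowest, median and highest log2 value of 5.25, 5.65 and 5.90 in aged impaired animals, 5.49, 5.69 and 5.74 in aged unimpaired animals, and 5.45, 5.69 and 6.04 in young animals. Among these, 8 of the 23 arrays had exactly the same value, 5.69167, 4 of them aged unimpaired and 4 young. The groups overlapped, and 2 of 8 aged impaired animals lay below every young animal. The differences were -0.14 ± 0.09 in aged impaired against young animals (limma adjusted p = 0.328), -0.09 ± 0.10 in aged unimpaired against young animals (0.668) and -0.04 ± 0.10 between the aged groups (0.885). The 95% interval of the first, -0.32 to 0.04, also holds the difference that was called for Gap43. The other Dcx probe set (1387601_at) lay at the floor on every array.

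Ncam1, the neural cell adhesion molecule that carries polysialic acid on young neurons and mossy fibres, was read by 2 tested probe sets, whose differences had opposite signs in aged unimpaired against young animals and lay above 0 on both in aged impaired against young animals. The brighter (1379389_at) had a lowest, median and highest log2 value of 9.18, 9.30 and 9.59 in aged impaired animals, 9.27, 9.36 and 9.47 in aged unimpaired animals, and 9.16, 9.23 and 9.33 in young animals. The young animals were low, with 4 of 6 aged unimpaired and 2 of 8 aged impaired animals above all of them, and 7 of the 23 arrays had exactly the same value, 9.3012. Its differences were 0.10 ± 0.05 in aged impaired against young animals (limma adjusted p = 0.187) and 0.11 ± 0.05 in aged unimpaired against young animals (0.294), and between the aged groups the difference was -0.01 ± 0.05 (0.971).

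The dimmer Ncam1 probe set (1368320_at) had a lowest, median and highest log2 value of 7.10, 7.46 and 7.78 in aged impaired animals, 6.63, 7.11 and 7.42 in aged unimpaired animals, and 7.17, 7.37 and 7.75 in young animals. Here the aged unimpaired animals were low, with 4 of 6 below every young animal, and the aged impaired and young animals covered nearly the same range. The differences were 0.03 ± 0.11 in aged impaired against young animals (limma adjusted p = 0.88), -0.34 ± 0.12 in aged unimpaired against young animals (0.132) and 0.37 ± 0.12 between the aged groups (0.126). Neither probe set was thus called in a pairwise comparison. The remaining Ncam1 probe set (1377368_at) reached 2.20 at most.

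Dpysl3, a collapsin response mediator that links semaphorin signals to the growth cone's cytoskeleton, had 2 probe sets that reached 2.25 (1388101_at) and 2.22 (1391010_at) at most. Sox11, a transcription factor of newly born neurons, had 1 (1387275_at), at 2.19 on all 23 arrays. A floor value gives no level: Tubb3, Gap43, Dcx and Ncam1 each had a probe set at the floor beside another well above it. No statement on Sox11 or Dpysl3 in these groups follows from these arrays.

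Another 83 genes in 7 lists of growth cone and immature neuron functions were counted, each by its brightest tested probe set. Of these, 77 were on the array as the only gene of a probe set and 66 were tested. In aged impaired against young animals, 7 of 66 were called lower and 0 higher, where 5.88% and 3.88% of all tested probe sets were called. At an unadjusted p at or under 0.05 lay 18 of 66. The share of all tested probe sets at that unadjusted threshold was not counted, so this count and those of the single lists below have no background beside them. In aged unimpaired against young animals 2 of 66 were called lower and 0 higher (0.696% and 1.37% of all), and between the aged groups 1 of 66 was called higher and 0 lower (0.676% and 0.102% of all). The median differences were -0.05, -0.04 and -0.01 in the same order. The counts moved with the settings, from 4 to 10, from 0 to 6 and from 0 to 2 over 11 other fits chosen for these lists after the data were seen.

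**Figure D4:**
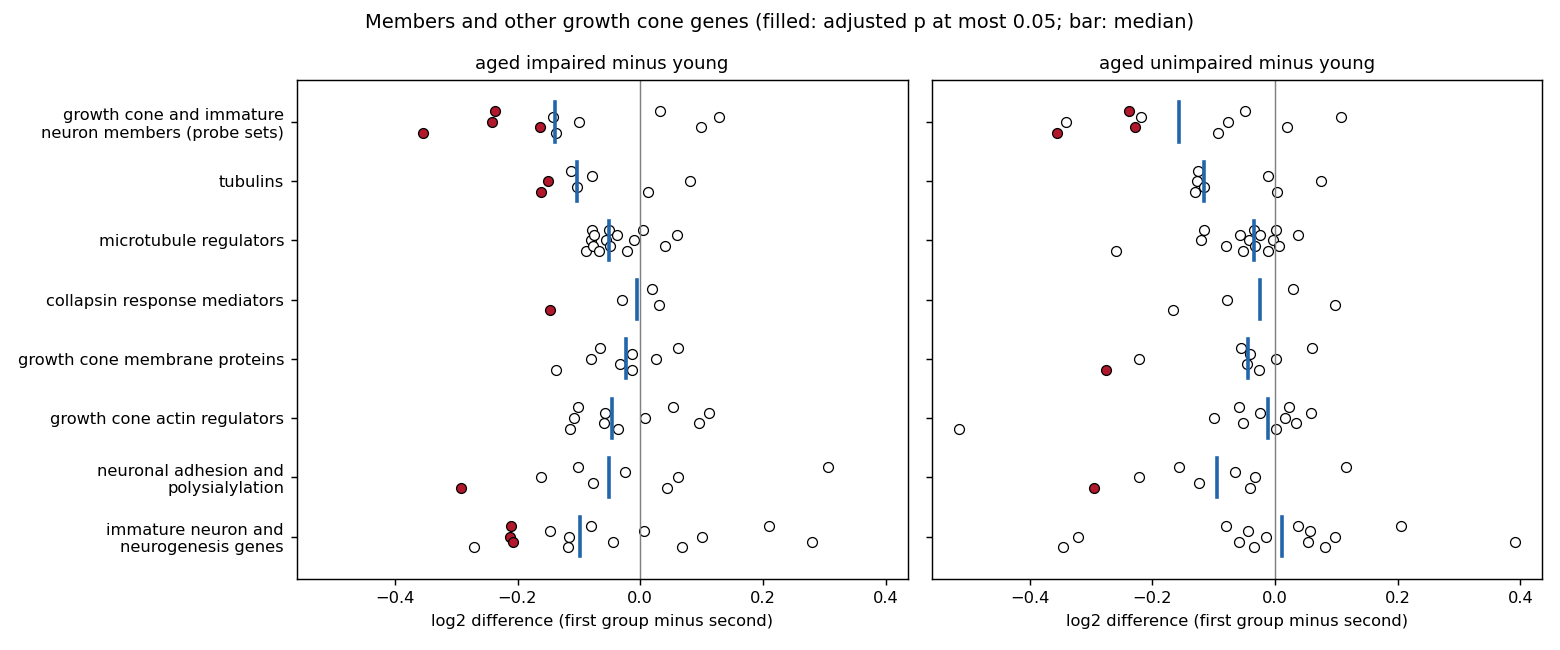
Log2 differences (x axis) of the 10 tested probe sets of the main genes (top row) and of 7 further lists, 1 point per gene, in aged impaired minus young and aged unimpaired minus young animals. Points are filled where the limma adjusted p was at most 0.05 and blue bars mark medians, and every filled point lies left of 0.

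Among 7 further tubulins tested, 2 were called lower in aged impaired against young animals and 0 in aged unimpaired against young animals, where 3 had an unadjusted p at or under 0.05. Tuba4a, an alpha-tubulin of mature neurons, averaged 11.80 ± 0.07 in aged impaired (SD, n = 8) and 11.96 ± 0.07 in young animals (SD, n = 9), with 7 of 8 below every young animal (-0.16 ± 0.04 SE, limma adjusted p = 0.012). Tubb4b, a broadly used beta-tubulin, averaged 11.76 ± 0.08 in aged impaired (SD, n = 8) and 11.91 ± 0.08 in young animals (SD, n = 9; -0.15 ± 0.04 SE, limma adjusted p = 0.0204). The tubulin list ran from -0.16 to 0.08 with a median of -0.10 in that comparison, and from -0.13 to 0.07 with a median of -0.12 in aged unimpaired against young animals.

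Of 15 microtubule regulators, which include Map2, Mapt, the doublecortin relatives Dclk1 and Dclk2 and the other stathmins Stmn3 and Stmn4, limma called 0 in each comparison, with an unadjusted p at or under 0.05 for 2 in aged impaired against young, 3 in aged unimpaired against young and 2 in aged impaired against aged unimpaired animals. Their differences ran from -0.09 to 0.06 in aged impaired against young animals and from -0.26 to 0.04 in aged unimpaired against young animals. Among 4 collapsin response mediators, Crmp1, a partner of semaphorin 3A signalling, was lower in aged impaired than in young animals (-0.15 ± 0.04 SE, limma adjusted p = 0.0275), a call that ended without aged impaired replicate 2 or 4, without young replicate 8 and with the control row gap as a covariate (highest adjusted p 0.0651). The other 3 were not called.

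Of 8 growth cone membrane proteins, Marcks, an actin-binding substrate of protein kinase C, was lower in aged unimpaired than in young animals (-0.28 ± 0.07 SE, limma adjusted p = 0.0487). That call stood close to the threshold and ended in 17 of 23 fits that left out 1 animal. Its 3 other tested probe sets ran from -0.42 to -0.12 and were not called. Among 10 actin regulators of the growth cone, Fscn1 (fascin, which bundles the actin of filopodia) was the 1 gene called between the aged groups. It averaged 8.64 ± 0.21 in aged impaired (SD, n = 8) and 8.02 ± 0.32 in aged unimpaired animals (SD, n = 6), with 7 of 8 aged impaired above every aged unimpaired animal (0.63 ± 0.14 SE, limma adjusted p = 0.0415). Its call ended in 5 of 11 other fits (highest adjusted p 0.462) and in 12 of 23 fits without 1 animal, and its other tested probe set gave 0.50 ± 0.15 (adjusted p = 0.11).

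In the list of adhesion and polysialylation genes, 8 were tested. Nfasc, neurofascin of the axon initial segment and the nodes of Ranvier, was lower in aged impaired than in young animals (-0.29 ± 0.06 SE, limma adjusted p = 0.00767) and in aged unimpaired than in young animals (-0.29 ± 0.07 SE, limma adjusted p = 0.0278), the second call ending in 5 of 23 fits without 1 animal. Its other tested probe sets were not called, and they ran from -0.23 to 0.12 in aged impaired against young animals. The polysialyltransferases St8sia2 and St8sia4, which add polysialic acid to Ncam1, reached 2.19 and 2.21 at most.

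Of 23 immature neuron and neurogenesis genes, 14 were tested, and 3 were called lower in aged impaired than in young animals. These were Neurod6 (-0.21 ± 0.05 SE, limma adjusted p = 0.0116), a transcription factor of pyramidal neurons, Bcl11a (-0.21 ± 0.06 SE, 0.0306), a zinc-finger factor of projection neurons, and Elavl4 (-0.21 ± 0.06 SE, 0.0406), a neuronal RNA-binding protein that stabilises Gap43 mRNA. All 3 are also used by mature neurons. The Neurod6 call held in the 23 fits that left out 1 animal, while those of Bcl11a and Elavl4 ended in 8 and 11 of them. The other Bcl11a probe set was called too (-0.34 ± 0.09 SE, 0.0238). Of the 14, limma called 0 in aged unimpaired against young animals, with 3 at an unadjusted p at or under 0.05. Between the aged groups it also called 0, with 5 at an unadjusted p at or under 0.05. The median difference of the list there was -0.12, beside -0.02 over all tested probe sets. Several genes of dividing cells and early progenitors lay near the floor on all arrays. The highest values were 2.20 for Mki67, 2.55 for Top2a, 2.37 for Mcm2, 2.19 for Eomes, 2.32 for Neurog2 and 3.03 for Nes. Others lay above it, with young means of 8.99 for Pcna, 10.15 for Sox2, 11.34 for Fabp7 and 4.58 for Pax6. By the brightest probe set, none of these was called.

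Markers of cell types and of the fields next to CA3 were read on the same arrays, and their part in the results above was not tested. Of 5 CA3 markers, 3 were called lower in aged impaired than in young animals, namely Nrip3 (-0.30 ± 0.06 SE, limma adjusted p = 0.00336), Dkk3 (-0.20 ± 0.05 SE, 0.0225) and the kainate receptor subunit Grik5 (-0.21 ± 0.07 SE, 0.0459). The mean of the 5, each taken as its deviation from its mean over all arrays, ran from -0.27 to 0.19 in aged impaired, from -0.13 to 0.02 in aged unimpaired and from -0.03 to 0.26 in young animals. The call of Grik5 ended in 16 of 23 fits without 1 animal. In aged unimpaired against young animals limma called 0 of 5, and 2 at an unadjusted p at or under 0.05, with differences from -0.22 to -0.11.

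Of 7 markers of mature neurons 1 was called, the neurofilament Nefl, lower in aged impaired than in young animals (-0.15 ± 0.05 SE, limma adjusted p = 0.0376), and its call ended in 7 of 23 fits without 1 animal. The mean of the 7 ran from -0.16 to 0.06 in aged impaired, from -0.10 to 0.09 in aged unimpaired and from -0.04 to 0.12 in young animals. Of 4 tested markers of dentate granule cells, limma called 0 in each comparison, at an unadjusted p too, and their mean ran from -0.38 to 0.60 in aged impaired, from -0.26 to 0.51 in aged unimpaired and from -0.41 to 0.40 in young animals. The granule cell markers Dsp and Tdo2 reached 2.62 and 2.19 at most.

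The 4 CA1 markers were not called either (1 at an unadjusted p at or under 0.05 in aged impaired against young animals). All 4 differences from young animals lay above 0, at 0.17 to 0.72 in aged impaired and 0.09 to 0.70 in aged unimpaired animals. Their mean varied widely between animals, from -0.74 to 1.36 in aged impaired, from -0.13 to 0.31 in aged unimpaired and from -1.77 to 0.67 in young animals. Among 4 CA2 markers, Pcp4 (-0.30 ± 0.08 SE, limma adjusted p = 0.0254) and Rgs14 (-0.24 ± 0.07 SE, 0.0254) were lower in aged impaired than in young animals. Amigo2 was higher in aged unimpaired than in young animals (0.61 ± 0.14 SE, limma adjusted p = 0.0196) and lower in aged impaired than in aged unimpaired animals (-0.60 ± 0.14 SE, 0.0489). The first of these calls ended with no filter on low values (adjusted p = 0.0618) and without aged unimpaired replicate 2 or 4, and the second in 5 of 11 other fits (highest adjusted p 0.457) and in 19 of 23 fits without 1 animal. The CA2 mean ran from -0.22 to -0.04 in aged impaired, from 0.03 to 0.21 in aged unimpaired and from -0.08 to 0.16 in young animals.

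Microglia markers and the astrocyte gene Gfap were higher in both aged groups. All 4 tested microglia markers (Aif1, Csf1r, P2ry12 and C1qa) were called higher in aged impaired than in young animals, by 0.58 to 1.07 on the log2 scale, and all 4 in aged unimpaired than in young animals, by 0.44 to 0.85. Their mean ran from 0.04 to 0.56 in aged impaired, from 0.02 to 0.38 in aged unimpaired and from -0.65 to -0.24 in young animals. In the pairwise comparisons Gfap was the 1 of 6 astrocyte markers called, higher in aged impaired than in young animals (0.62 ± 0.10 SE, limma adjusted p = 7e-04) and in aged unimpaired than in young animals (0.53 ± 0.11 SE, 0.00955). The astrocyte mean ran from -0.08 to 0.29 in aged impaired, from -0.03 to 0.21 in aged unimpaired and from -0.25 to 0.06 in young animals. No marker of oligodendrocytes (4 tested), interneurons (5 tested) or endothelium (3 tested) was called, and 1 oligodendrocyte marker had an unadjusted p at or under 0.05 in aged impaired against young animals.

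How the probe sets varied together between animals of a group was described by Pearson's r of their deviations from the group means over the 23 arrays, which share normalization and tissue. Over the 45 pairs of the 10 probe sets, r ran from -0.52 to 0.71 with a median of 0.20, and 34 pairs lay above 0. Gap43 and Stmn2 (1370041_at) had the highest r, 0.71, and Tubb2a and Dcx the lowest, -0.52. The 2 Stmn2 probe sets had r = 0.52 with each other and the 2 tested Ncam1 probe sets r = 0.01. Tubb2b and Tubb3 had r = 0.30.

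For each gene the 3 others most like it by this r were named. Those of Tubb2b were Ptov1 (r = 0.78), Dag1 (0.73) and Cnnm3 (0.72), and those of Tubb3 were Slc6a17 (0.85), Uchl1 (0.82) and the alpha-tubulin Tuba4a (0.76). Tubb2a varied most like Map2 (0.76), Rtn4 (0.74) and Bex3 (0.74). Stmn2 varied most like Hsph1 (0.83), Trim37 (0.82) and the CA3 marker Nrip3 (0.82), and Gap43 most like Asnsd1 (0.73), Snap91 (0.71) and Vps37d (0.69). The highest values for Stmn1 were with Mea1, Csrp1 and Dpy19l1 (0.84 each), for Dcx with Yaf2 (0.78), Akip1 (0.74) and Psmg1 (0.73), and for Ncam1 (1379389_at) with Rpl34 (0.90), Grhpr (0.87) and Adar (0.86). Without the 2 arrays farthest from the median of the named gene, r ran from 0.56 to 0.85 over these 24 pairs. The pairs were picked on the same arrays, so this range is no separate check of them.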

How the data were processed

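RNA of microdissected CA3 tissue was measured in 23 rats, 1 array each. The deposited values are log2 expression; the submitters' processing notes name GCRMA as the authors' method. GCRMA takes off a background that depends on probe sequence, brings all arrays to the same distribution and gathers dim probe sets on a floor of 2.19. Its version is not given in the sources used here. Arrays give no read depth, and their number limits the precision.

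Groups and replicate numbers follow the labels. The record of young replicate 9 stands among those of the aged unimpaired animals, and its title was followed. It was the lowest young animal for Tubb2b (11.26), Tubb2a (13.05), Gap43 (11.15), Stmn1 (11.73) and Ncam1 (1368320_at, 7.17). It shared the lowest young value for Tubb3 (10.57) and was the highest young animal for Dcx (6.04). Without it, 5 of 10 probe sets were called in aged impaired and 3 in aged unimpaired against young animals, and 0 between aged groups. The 57 control rows were left out. Symbols came from the platform annotation (20826 probe sets with 1 gene, 436 with several and 9780 with none), and 0 of the 17 probe sets used had several genes. The 23 arrays were modelled with 1 mean for each group in limma (version 3.58.1, R 4.3.3), with 20 residual and 2.35 prior degrees of freedom, tested two-sided and adjusted by Benjamini-Hochberg over all 14647 tested probe sets. Single probe sets were also tested by exact permutation over animals, and those p-values are not adjusted. The fit was tested on simulated data in which aged impaired values were changed by log2 0.25 or 0.5, in 100 probe sets each. Against young animals it called 43% of the first and 87% of the second. In the simulation 131 probe sets were called in all, against 1429 in the data for the same comparison. The Benjamini-Hochberg cut-off is stricter where fewer are called, so these shares do not give the recovery in the data. A difference of the size seen here can still go uncalled. That of Gap43 in aged unimpaired against young animals did (-0.22, limma adjusted p = 0.132).

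The genes, the lists and the markers were chosen with earlier results of these data known, and no list was tested as a set. Genes named beyond the 10 were those called in a pairwise comparison, at most 4 per list and comparison, the 3 most alike per gene, and genes at the floor. Some regulators that were not called are named to say what their list holds, and some CA3 and neurogenesis genes to give their levels. Alternatives were other filters, a floor, centring, quantile normalization, array weights, only the groups compared, a covariate, a replicate block, a trended robust variance (statmod 1.5.0), another probe set of a gene, and leaving out animals. The covariate was the gap between 2 control rows, GAPDH 5′ over GAPDH M by name. Both followed a probe set listed for actin genes (r = 0.93 and 0.90), so their names may be out of register.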

Additional observations from a re-analysis of the deposited data

Results flagged for a closer look

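Of 30 sets of values (10 tested probe sets in 3 groups), 1 held an animal far from the others. For Dcx (1374966_at), aged unimpaired replicate 1 lay at 5.487 and the next animal at 5.692, a gap of 0.802 of the group's range, where Dixon's 95% critical value for 6 animals is 0.625. Chance flags about 1 in 20 such sets. Of the other 5 aged unimpaired animals, 4 had exactly the same value, 5.69167, which narrows the group.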

How the results depend on the processing

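The directions and calls of Tubb2b, Tubb3 and Stmn2 (1370041_at) in aged impaired against young animals, and of both Stmn2 probe sets in aged unimpaired against young animals, held in 11 other fits and in 23 fits without 1 animal. Between the aged groups, array weights called 1 of 10 probe sets, Stmn2 (1370042_at; adjusted p = 0.0424), and fits without 1 animal called 0 to 1. For both aged groups averaged, fits without 1 animal called 3 to 5, with 3 without young replicate 3. In aged impaired against young animals such fits called 3 to 5, and in aged unimpaired against young animals 2 to 3. The replicate block called 4, 2, 0 and 5 in the 4 comparisons, and apart from Tubb2b in aged unimpaired against young animals it changed no other call of the 10. The numbers did not pair the animals: of 20 same-numbered pairs, 2 had a correlation of deviations over 0.1 (-0.14 to 0.13). Quantile normalization called Ncam1 (1379389_at) higher in aged impaired than in young animals (adjusted p = 0.0416). For both aged groups averaged it also called this probe set higher (0.0287) and ended the call of Tubb3 (0.0533). Centring the arrays on their median called Ncam1 (1379389_at) higher in that comparison too (0.0491), and no filter on low values ended the call of Gap43 (0.0629). Over all tested probe sets the other fits moved the counts of calls from 1429 to between 768 and 1699 in aged impaired against young animals, from 302 to between 86 and 672 in aged unimpaired against young animals, from 114 to between 0 and 222 between the aged groups, and from 1010 to between 509 and 1467 for both aged groups averaged. Fits without 1 animal gave 1017 to 1808, 175 to 382, 2 (without aged unimpaired replicate 4) to 447 (without aged unimpaired replicate 7), and 615 to 1285 in the same order.

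Signs changed only in differences near 0 that no fit called. In aged impaired against young animals, Ncam1 (1368320_at) was -0.0062 with the control row gap, -0.00052 with the replicate block, and -0.013 to 0.084 without 1 animal. In aged unimpaired against young animals, Stmn1 was -0.0198 with the replicate block and -0.0080 to 0.054 without 1 animal. Between the aged groups, Gap43 was 0.059 with the control row gap and -0.064 to 0.033 without 1 animal, and Dcx -0.085 to 0.0078. Stmn2 (1370041_at) was -0.011 with the gap, -0.014 without aged impaired animals 1 and 2, and -0.025 to 0.030 without 1 animal. Ncam1 (1379389_at) was 0.00061 with quantile normalization, 0.0080 with the replicate block and -0.044 to 0.015 without 1 animal. The cause of these changes was not tested. Probe sets at the floor carry no order.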
